A study of Homo sapiens with 9 samples.

Results

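RRM1, RRM2, TYMS, CAD, UMPS, IMPDH2, PPAT, GART and PAICS encode enzymes that make nucleotides from small precursors. They were taken by their symbols, with the highest-total transcript row of each, and are 9 of the 25679 genes in the table. The study sequenced messenger RNA of MOLM13, a line of human acute myeloid leukemia cells with a KMT2A fusion, to find genes whose expression differs when the m6A reader YTHDC1 is targeted. The 9 libraries form 3 groups of 3: YTHDC1 shRNA 1, YTHDC1 shRNA 2 and a control shRNA. Cells of all groups, the controls included, received virus with polybrene at 10 ug/ml and a spin of 1 h. Incubation for 48 h and puromycin at 3 ug/ml for 48 h followed. The labels give no promoter for the short hairpin RNAs (shRNAs) and do not name clones. They do not say that libraries came from separate cultures either, so the p-values measure only how much these libraries vary, which may be technical.

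Dividing cells need purine and pyrimidine nucleotides for RNA and DNA, and build them along separate pathways. PPAT starts purine synthesis, GART and PAICS carry out several of the steps that follow, and IMPDH2 turns its product IMP towards guanine nucleotides. CAD starts pyrimidine synthesis and UMPS ends it with UMP. Ribonucleotide reductase, built from the large subunit RRM1 and the small subunit RRM2, converts ribonucleotides to deoxyribonucleotides, and TYMS makes the thymidine nucleotide of DNA. Several of these enzymes are targets of cytotoxic or immunosuppressive drugs, RRM2 of hydroxyurea, TYMS of fluorouracil and IMPDH2 of mycophenolate among them.

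The totals over genes ran from 48590108 to 67558535 counts with shRNA 1, from 26455628 to 50974549 with shRNA 2 and from 65588653 to 67124013 with control. YTHDC1 itself stood at 117, 103 and 134 CPM (counts scaled to a common library total, with factors from the trimmed mean of M values) in the libraries labelled shRNA 1, at 0, 61.4 and 52.5 CPM with shRNA 2, and at 134, 139 and 122 CPM with control. In the libraries labelled shRNA 1 no lower level could be measured (log2 fold change -0.16, edgeR adjusted p = 0.938, SE 1.36). In the fit without shRNA 2 replicate 1 that change was -0.18 (edgeR adjusted p = 0.271, SE 0.13). With shRNA 2 the change was -1.79 (edgeR adjusted p = 0.326) over all libraries and -1.23 (edgeR adjusted p = 2.2e-05) without replicate 1. That replicate stood apart: its log2 CPM correlated across genes at 0.908 and 0.906 with the other shRNA 2 libraries, against 0.993 between those. In it, 727 of 13715 genes (5.30%) lay under 0.5 of the level in both other shRNA 2 libraries, and 0 of the 9 enzymes were among them. The 9 enzymes stood there at 83.5% to 112% of the mean of the other shRNA 2 libraries, and the counts of calls below are also given without it.

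RefSeq promoter windows, 250 bases before to 50 bases after a start site on build GRCh38.p14, were matched by symbol for 8 of the 9 enzymes. The counts were made on build hg19, so the windows show sequence near the genes and were not used for counting. Both strands were searched for the letters of 4 motifs: the E-box CACGTG, bound by MYC with MAX; the CCAAT box CCAAT, bound by NF-Y; E2F-like letters TTTNNCGC; and the GC box GGGCGG, bound by SP1. No matches of different motifs shared a base in the 13 windows of these genes. The windows of PPAT and PAICS are shown first because both genes, on chromosome 4, are read away from each other from start sites 137 bases apart. Their windows hold 236 bases in common, on opposite strands. Capitals mark the E-box in these windows, which is the same stretch of DNA in both, 182 bases before the PPAT start and 40 bases after the PAICS start.
PPAT, minus strand, chr4:56435566-56435865: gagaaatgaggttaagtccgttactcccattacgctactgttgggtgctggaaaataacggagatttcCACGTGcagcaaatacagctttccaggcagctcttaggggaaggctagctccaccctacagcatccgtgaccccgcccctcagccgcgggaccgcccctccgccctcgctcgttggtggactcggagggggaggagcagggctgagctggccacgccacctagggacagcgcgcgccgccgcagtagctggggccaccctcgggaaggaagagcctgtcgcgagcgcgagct
PAICS, plus strand, chr4:56435502-56435801: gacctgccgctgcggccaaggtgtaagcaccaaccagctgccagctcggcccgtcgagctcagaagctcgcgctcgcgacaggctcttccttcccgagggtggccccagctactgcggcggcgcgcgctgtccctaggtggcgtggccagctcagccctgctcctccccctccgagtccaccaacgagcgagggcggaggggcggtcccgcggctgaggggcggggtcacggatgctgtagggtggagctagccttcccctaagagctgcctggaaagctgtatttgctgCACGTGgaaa

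The windows of both ribonucleotide reductase subunits and of TYMS are shown because these enzymes serve DNA synthesis. Capitals mark CCAAT in RRM2, at 123, 93 and 66 bases before the start, and in RRM1, at 28 bases before it. In TYMS they mark the E2F-like letters on the opposite strand, 39 bases before the start.
RRM2, plus strand, chr2:10122489-10122788: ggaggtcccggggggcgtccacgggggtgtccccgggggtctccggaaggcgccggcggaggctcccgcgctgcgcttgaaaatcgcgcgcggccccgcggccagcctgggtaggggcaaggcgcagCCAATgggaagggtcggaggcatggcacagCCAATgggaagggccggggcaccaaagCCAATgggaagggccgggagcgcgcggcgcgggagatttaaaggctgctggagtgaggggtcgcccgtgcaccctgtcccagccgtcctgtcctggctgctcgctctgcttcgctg
RRM1, plus strand, chr11:4094435-4094734: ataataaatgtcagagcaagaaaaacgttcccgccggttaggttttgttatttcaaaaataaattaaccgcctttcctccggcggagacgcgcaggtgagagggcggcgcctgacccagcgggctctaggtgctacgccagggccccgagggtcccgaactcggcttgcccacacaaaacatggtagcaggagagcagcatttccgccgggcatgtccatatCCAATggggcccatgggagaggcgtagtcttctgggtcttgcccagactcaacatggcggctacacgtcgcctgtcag
TYMS, plus strand, chr18:657403-657702: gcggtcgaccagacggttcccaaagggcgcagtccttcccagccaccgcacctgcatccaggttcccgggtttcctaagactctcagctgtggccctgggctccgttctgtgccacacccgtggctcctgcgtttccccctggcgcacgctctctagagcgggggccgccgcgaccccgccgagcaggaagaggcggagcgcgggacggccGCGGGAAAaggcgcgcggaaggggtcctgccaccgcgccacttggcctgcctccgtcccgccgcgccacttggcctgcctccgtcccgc

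Over all windows of the 8 genes, the E-box letters were found at 2 genes, PPAT and PAICS, against 8.77% of the 27305 genes with such windows, or 7.26% of 35116 windows. As PPAT and PAICS share that stretch of DNA, their matches are not separate sites. CCAAT was found at 4 genes (RRM1, RRM2, CAD and GART), against 39.7% of genes and 34.6% of windows. The E2F-like letters were found at TYMS and GART, against 8.23% of genes and 6.89% of windows. The GC box was found at 6 genes, against 48.3% of genes and 45.0% of windows. No factor was measured on these windows, so a match describes letters, not a bound site. MYC mRNA averaged 196 ± 31.7 CPM with shRNA 1, 127 ± 2.61 CPM with shRNA 2 and 513 ± 18.5 CPM with control (SD, n = 3 each).

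All 9 enzymes had less mRNA in every YTHDC1 shRNA library than in any control library, as 19.8% of all genes tested had. For shRNA 1 alone that share was 24.2% of genes, and for shRNA 2 alone 35.0%. Of the 9, 8 fell with shRNA 1, all but UMPS, where 19.0% of the 16746 genes tested fell. With shRNA 2 all 9 fell, against 27.4% of genes, and 0 of the 9 rose with shRNA 1 or shRNA 2, against 20.4% and 27.5% of genes. All fitted log2 fold changes of the 9 lay below 0, so 0 were higher at an unadjusted p under 0.05, and DESeq2 also called 0 higher. The median log2 fold change of the 9 was -0.97 with shRNA 1 and -1.63 with shRNA 2, where the medians of all genes tested were 0.02 and -0.02. In the mean of both shRNAs against control all 9 fell, against 26.2% of genes, and 0 rose, against 26.3%, with a median of -1.30 beside 0.00. These calls are from edgeR's quasi-likelihood test with Benjamini-Hochberg adjustment over all genes, at an adjusted p under 0.05. Both comparisons share the 3 control libraries. Without shRNA 2 replicate 1 the counts were also 8, 9 and 9, against 20.8%, 27.0% and 27.4% of genes. In bulk RNA, fewer cells that make a transcript and less of it per cell cannot be told apart.

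**Figure D1:**
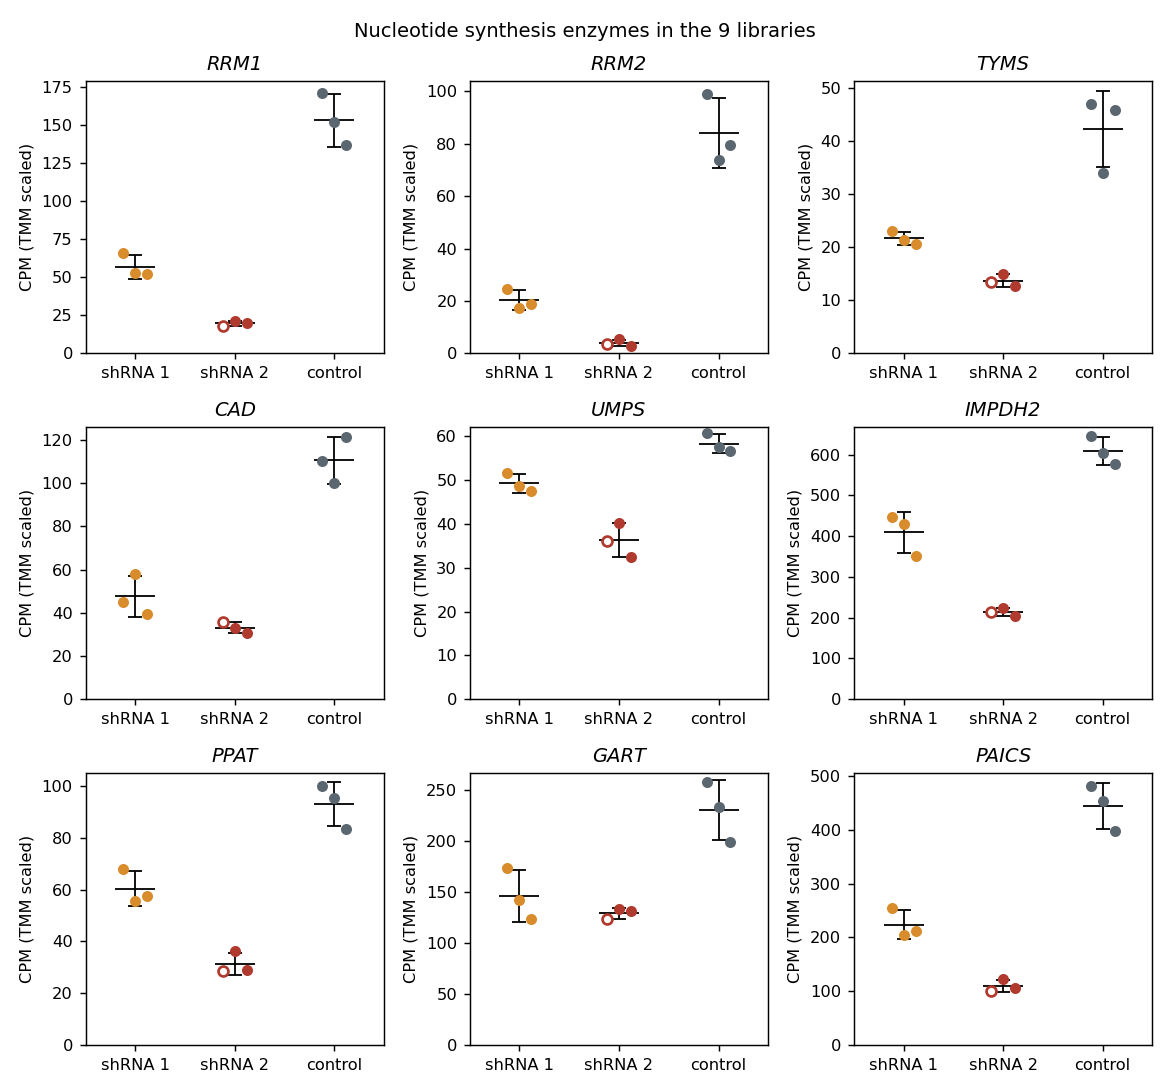
Scaled CPM of the 9 enzymes in each library (points), with group means and SD (lines), for shRNA 1, shRNA 2 and control; the open point is shRNA 2 replicate 1. In every panel all 6 YTHDC1 shRNA libraries lie below all 3 control libraries, and in all panels but GART the shRNA 2 libraries lie below those of shRNA 1.

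RRM2, the small subunit that holds the radical of ribonucleotide reductase, was the enzyme that fell most with each shRNA. It stood at 24.5, 17.4 and 18.9 CPM with shRNA 1, at 3.45, 5.29 and 2.96 CPM with shRNA 2, and at 99.1, 73.8 and 79.5 CPM with control. The 3 groups did not overlap, and the shRNA 2 mean was 4.64% of the control mean. RRM2 fell by 2.05 on the log2 scale with shRNA 1 (edgeR adjusted p = 6.63e-05, SE 0.22) and fell by 4.42 with shRNA 2 (edgeR adjusted p = 2.62e-07, SE 0.25). In the shRNA 2 comparison 0.107% of all genes tested had a lower log2 fold change. The low level with shRNA 2 rested on 109, 277 and 145 counts, against 4680 to 6220 in the controls. On GRCh38, 1077 of 5323 exon bases of RRM2 also belong to another annotated gene on the same strand, and 3 pseudogenes carry its name. The treatment of reads that match several places is not stated in the labels.

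RRM1, the large subunit with the catalytic and regulatory sites, fell less than RRM2. It stood at 66.0, 52.7 and 51.9 CPM with shRNA 1, at 18.0, 21.2 and 19.9 CPM with shRNA 2, and at 171, 152 and 136 CPM with control. The groups did not overlap, and the shRNA 2 libraries lay within a narrow range. RRM1 fell by 1.43 on the log2 scale with shRNA 1 (edgeR adjusted p = 1.31e-05, SE 0.13) and fell by 2.96 with shRNA 2 (edgeR adjusted p = 3.9e-08, SE 0.13). Its means were 37.2% of control with shRNA 1 and 12.9% with shRNA 2.

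TYMS, thymidylate synthase, stood at 23.1, 21.4 and 20.6 CPM with shRNA 1, at 13.4, 15.0 and 12.7 CPM with shRNA 2, and at 47.0, 34.0 and 45.9 CPM with control. The groups did not overlap, although control replicate 2 was lower than the other controls. TYMS fell by 0.97 on the log2 scale with shRNA 1 (edgeR adjusted p = 0.000256, SE 0.13) and fell by 1.63 with shRNA 2 (edgeR adjusted p = 2.82e-06, SE 0.14). ENOSF1, a gene read from the opposite strand, shares 967 of the 2470 exon bases of TYMS on GRCh38. It fell as well (averaged log2 fold change -0.72, edgeR adjusted p = 0.000151), and whether the counting used strand is not given. A part of the reads of one can therefore not be told apart from those of the other. TYMS was lower with shRNA 2 than with shRNA 1 (-0.66 ± 0.14 (SE), edgeR adjusted p = 0.00369), whereas ENOSF1 had 0.14 ± 0.12 (edgeR adjusted p = 0.411) there.

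CAD, one protein with the first 3 activities of pyrimidine synthesis, was at 45.2, 57.8 and 39.6 CPM with shRNA 1, at 35.6, 33.0 and 30.5 CPM with shRNA 2, and at 110.1, 99.96 and 122 CPM with control. The groups did not overlap, and the means were 43.0% of control with shRNA 1 and 29.9% with shRNA 2. CAD fell by 1.22 on the log2 scale with shRNA 1 (edgeR adjusted p = 7.64e-05, SE 0.14) and fell by 1.74 with shRNA 2 (edgeR adjusted p = 2.3e-06, SE 0.14).

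UMPS, which ends the pathway that CAD starts, changed least of the 9. It stood at 51.7, 48.7 and 47.5 CPM with shRNA 1, at 36.1, 40.3 and 32.5 CPM with shRNA 2, and at 60.8, 57.7 and 56.6 CPM with control. The groups did not overlap, with 51.7 CPM in the highest shRNA 1 library against 56.6 CPM in the lowest control. The test was not passed with shRNA 1, at -0.24 ± 0.10 (log2 fold change ± SE, edgeR adjusted p = 0.0798). It was -0.27 and passed (edgeR adjusted p = 0.0479) in a fit of all transcript rows with the second-highest row of UMPS. With shRNA 2 UMPS fell by 0.68 (edgeR adjusted p = 0.000192, SE 0.10).

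PPAT, the amidotransferase that commits a cell to purine synthesis, stood at 68.0, 55.7 and 57.5 CPM with shRNA 1, at 28.6, 36.2 and 28.9 CPM with shRNA 2, and at 100.1, 95.2 and 83.6 CPM with control. The groups did not overlap. PPAT fell by 0.62 on the log2 scale with shRNA 1 (edgeR adjusted p = 0.00266, SE 0.13) and fell by 1.57 with shRNA 2 (edgeR adjusted p = 2.23e-06, SE 0.13).

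PAICS, an enzyme with a carboxylase and a synthetase activity that shares the promoter stretch shown above with PPAT, fell further. It stood at 254, 204 and 212 CPM with shRNA 1, at 101, 123 and 106 CPM with shRNA 2, and at 482, 454 and 398 CPM with control. Again the groups did not overlap, and the means were 50.2% of control with shRNA 1 and 24.7% with shRNA 2. PAICS fell by 0.99 on the log2 scale with shRNA 1 (edgeR adjusted p = 0.000144, SE 0.13) and fell by 2.02 with shRNA 2 (edgeR adjusted p = 3.71e-07, SE 0.13). RefSeq lists 7 pseudogenes named after PAICS, 2 after PPAT and 2 after TYMS, so a part of these counts is uncertain.

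GART, one protein with 3 activities of purine synthesis, was the enzyme with nearly equal levels under both shRNAs. It stood at 174, 142 and 123 CPM with shRNA 1, at 123, 134 and 131 CPM with shRNA 2, and at 258, 234 and 199 CPM with control. Both shRNA groups lay below the controls and overlapped each other. GART fell by 0.66 on the log2 scale with shRNA 1 (edgeR adjusted p = 0.00333, SE 0.14) and fell by 0.83 with shRNA 2 (edgeR adjusted p = 0.000417, SE 0.14). SON, a gene read from the opposite strand, shares 275 of the 7751 exon bases of GART on GRCh38. Its log2 fold change was 0.35 with shRNA 1 (edgeR adjusted p = 0.0240) and 0.16 with shRNA 2 (edgeR adjusted p = 0.215). Since the use of strand in counting is not given, some reads of GART and SON may not be told apart. A shorter GART transcript, which encodes only the first of the 3 activities, has a row of its own with 2149 bases against 3490 bases of the highest row. Counts of that row were 64.5%, 64.0% and 63.1% of the highest row with shRNA 1, 58.5%, 60.6% and 60.5% with shRNA 2, and 63.1%, 64.0% and 62.4% with control. Both rows share reads, so these shares are not the share of the short transcript, and they were not tested.

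IMPDH2, the rate-limiting enzyme of guanine nucleotide synthesis, stood at 446, 429 and 352 CPM with shRNA 1, at 214, 223 and 203 CPM with shRNA 2, and at 646, 604 and 577 CPM with control. No groups overlapped, and the shRNA 2 libraries lay close together at 35.1% of the control mean. IMPDH2 fell by 0.57 on the log2 scale with shRNA 1 (edgeR adjusted p = 0.00246, SE 0.11) and fell by 1.51 with shRNA 2 (edgeR adjusted p = 1.41e-06, SE 0.12).

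Of the 9 enzymes, 8 were lower with shRNA 2 than with shRNA 1, all but GART, against 16.5% of all genes tested, and 0 were higher by edgeR or DESeq2, against 15.5%, as all 9 differences lay below 0. The median log2 difference of the 9 was -0.94, beside -0.03 over all genes. RRM2 differed most between the shRNAs (-2.37 ± 0.23 (SE), edgeR adjusted p = 4.53e-05) and RRM1 next (-1.53 ± 0.13, edgeR adjusted p = 1.02e-05). PAICS, PPAT and IMPDH2 had differences of -1.03 (edgeR adjusted p = 0.000156), -0.95 (0.000266) and -0.94 (0.00015). UMPS had -0.44 (edgeR adjusted p = 0.00703), and CAD -0.53 (0.0149). The call of CAD was lost without shRNA 2 replicate 3 (-0.46, edgeR adjusted p = 0.0772). GART did not pass (-0.18 ± 0.14 (SE), edgeR adjusted p = 0.365). Every shRNA 2 library lay below every shRNA 1 library, and these below every control, for 8 enzymes, where 8.03% of all genes had that order. Without regard to the controls, 23.2% of genes had every shRNA 2 library below every shRNA 1 library. Without shRNA 2 replicate 1 the test called 8 lower, against 13.2% of genes.

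**Figure D2:**
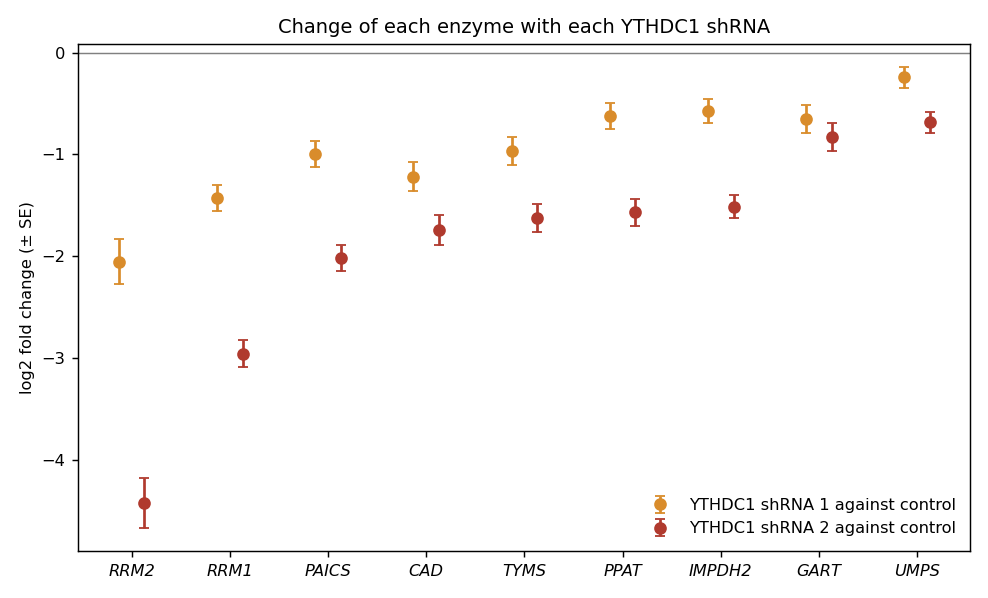
Log2 fold change (± SE, edgeR) of each enzyme against control, with shRNA 1 at the left and shRNA 2 at the right of each pair. All values lie below 0, from -2.05 (RRM2) to -0.24 (UMPS) with shRNA 1 and from -4.42 (RRM2) to -0.68 (UMPS) with shRNA 2.

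Levels of different enzymes were compared as scaled CPM per kilobase of transcript. IMPDH2 was highest in each group, at 249 ± 30.7 with shRNA 1, 129.9 ± 6.09 with shRNA 2 and 371 ± 21.2 with control (SD, n = 3 each). PAICS followed in control, at 67.8 ± 8.16 with shRNA 1, 33.3 ± 3.55 with shRNA 2 and 135 ± 12.9 with control. TYMS, PPAT and RRM2 were within their spread of each other in control, at 25.5 ± 4.32, 25.2 ± 2.31 and 24.5 ± 3.87. With shRNA 2 these 3 were at 8.25 ± 0.731, 8.49 ± 1.17 and 1.14 ± 0.358 per kilobase, so that RRM2 lay under the others. With a transcript length of 6738 bases, UMPS was lowest in control at 8.66 ± 0.322. With shRNA 2 it stood at 5.39 ± 0.577, above CAD at 4.55 ± 0.349 and RRM2. These ranks depend on the lengths used: before division by length, UMPS (mean 58.4 CPM) lay above TYMS (42.3 CPM) in control.

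The small subunit of ribonucleotide reductase has a second form, RRM2B, a target of p53 that serves DNA repair and resting cells. RRM2B rose with each shRNA while RRM2 fell. Its level was 221, 181 and 196 CPM with shRNA 1, 145, 143 and 155 CPM with shRNA 2, against 63.8, 57.8 and 58.2 CPM with control. Its shRNA 2 libraries lay below those of shRNA 1, as for 23.2% of all genes. Of all genes tested, 20.4% were called higher with shRNA 1 and 27.5% with shRNA 2. A lower log2 fold change than that of RRM2B was seen for 96.6% of genes with shRNA 1 and 88.2% with shRNA 2. The rise was 1.73 on the log2 scale with shRNA 1 (edgeR adjusted p = 1.65e-06, SE 0.10) and 1.30 with shRNA 2 (edgeR adjusted p = 1.63e-06, SE 0.10). RRM2B lies on chromosome 8 and no sequence of it is shown.

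Ratios within a library, as log2 of levels per kilobase, compared related genes without the scaling between libraries. The log2 ratio of RRM2B to RRM2 was 4.27, 4.47 and 4.46 with shRNA 1, 6.48, 5.85 and 6.80 with shRNA 2, and 0.45, 0.74 and 0.64 with control. All 6 shRNA libraries lay above the controls, by 4.78 on average (two-sided exact permutation test over 84 arrangements, p = 0.0119, adjusted over 3 ratios 0.0357). The level of that ratio depends on the transcript length used: RRM2B rows of 1613 and 4931 bases held 63990 and 63849 counts. Its difference between groups does not depend on a length common to all libraries.

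The log2 ratio of RRM2 to RRM1 was -1.59, -1.76 and -1.61 with shRNA 1, -2.55, -2.16 and -2.91 with shRNA 2, and -0.95, -1.20 and -0.94 with control. The groups did not overlap, and the difference was -1.07 (exact permutation p = 0.0238, adjusted 0.0357). It missed 0.05 (exact permutation p = 0.0714) without shRNA 2 replicate 2 or any 1 control. IMPDH1, the second IMP dehydrogenase, had a log2 ratio to IMPDH2 of -4.37, -3.91 and -4.20 with shRNA 1, -3.43, -3.87 and -3.68 with shRNA 2, and -4.73, -4.43 and -4.21 with control. Here shRNA 1 and control overlapped, and the difference of 0.55 (exact permutation p = 0.0476, adjusted 0.0476) was no longer past 0.05 on leaving out any single one of 8 of the 9 libraries. For PPAT and PAICS, a ratio chosen after their values were seen and not tested, the values were -2.06, -2.03 and -2.04 with shRNA 1. They were -1.97, -1.92 and -2.03 with shRNA 2, and -2.43, -2.41 and -2.41 with control. All shRNA libraries thus lay above the controls, by 0.41 on average.

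**Figure D3:**
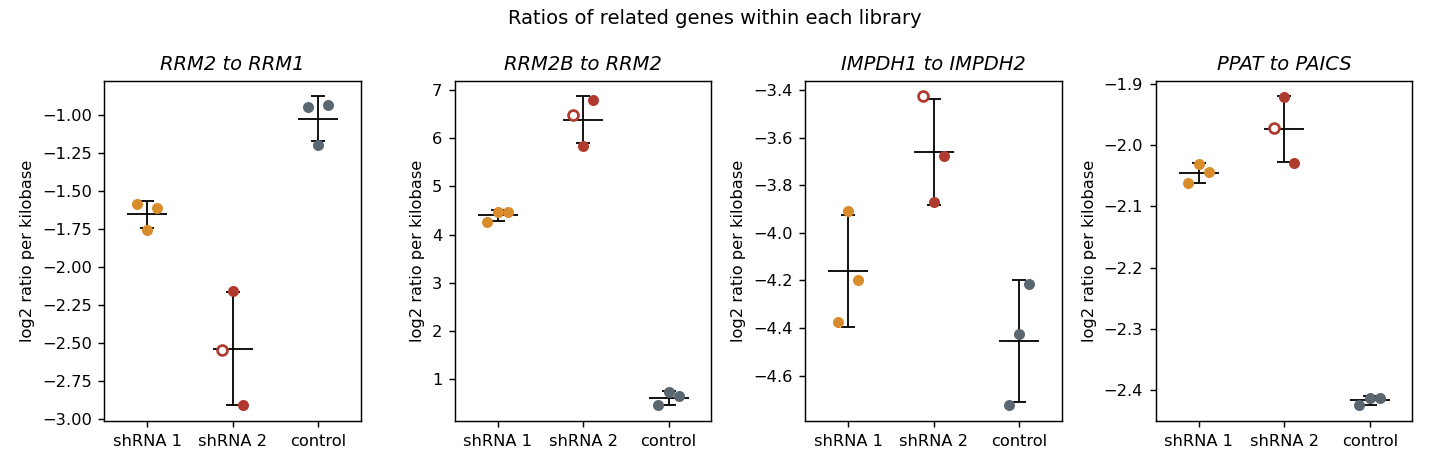
Log2 ratios of levels per kilobase within each library (points; open, shRNA 2 replicate 1), with group means and SD, for 4 pairs of genes in shRNA 1, shRNA 2 and control. The RRM2B to RRM2 panel spans from 0.45 in control to 6.80 with shRNA 2, and the PPAT to PAICS panel only from -2.43 to -1.92.

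Beyond the 9 enzymes, genes of synthesis were mostly lower, and genes of salvage and breakdown had calls in both directions. Of 52 other genes of nucleotide metabolism, 50 passed the filter on low counts, XDH (38 counts in all) and GDA (22) being those that did not. Lower and higher calls were 21 and 10 with shRNA 1, 30 and 10 with shRNA 2, and 30 and 11 for the mean of both. The lower calls were thus 42.0%, 60.0% and 60.0% of the 50, against 19.0%, 27.4% and 26.2% of all genes. Over all genes the higher calls were 20.4%, 27.5% and 26.3%, so 10 of 50 with shRNA 1 is close to the share of all genes, and 10 and 11 of 50 lie under it with shRNA 2 and in the mean. The medians of the 50 were -0.31, -0.63 and -0.49 beside those of all genes given above. For shRNA 2 against shRNA 1 the counts were 14 and 6, against 16.5% and 15.5% of all genes, but 24 were lower without shRNA 1 replicate 3. Without shRNA 2 replicate 1 the counts were 23 and 10 with shRNA 1, 30 and 8 with shRNA 2, 30 and 11 for the mean, and 12 and 5 for shRNA 2 against shRNA 1. By step, the counts against control given below each moved by at most 1 gene without it.

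The other enzymes of purine synthesis had 5 of 9 lower with shRNA 1, 8 of 9 with shRNA 2 and 8 of 9 in the mean of both. Of all genes tested, 19.0%, 27.4% and 26.2% were lower in these comparisons. Their averaged median was -0.97. PFAS, the formylglycinamidine synthase that acts between activities of GART, fell by 1.71 on the log2 scale. The PRPP synthetases PRPS2 and PRPS1 fell by 1.46 and 1.00, and GMPS, which makes GMP after IMPDH2, fell by 1.11. ADSL, the adenylosuccinate lyase, fell by 0.97. Smaller averaged falls were those of IMPDH1 (-0.49), ATIC (-0.48), which ends the path to IMP, and ADSS2, ADSS in the table (-0.30), which starts the AMP branch. None of these 3 passed with shRNA 1, where ATIC had 0.02 (edgeR adjusted p = 0.930), IMPDH1 -0.27 (0.212) and ADSS2 -0.12 (0.431), while with shRNA 2 they had -0.98, -0.71 and -0.49 and passed. Each of the 3 averaged calls was lost on leaving out 1 control: IMPDH1 without replicate 3 (-0.42, edgeR adjusted p = 0.0523) and ATIC without replicate 1 (-0.28, edgeR adjusted p = 0.156). ADSS2 was lost without replicate 1 (-0.25, edgeR adjusted p = 0.0881) or replicate 2 (-0.28, 0.0867). ADSS1, the muscle form, had 0.38 and did not pass (edgeR adjusted p = 0.175).

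All 3 other pyrimidine synthesis genes fell with each shRNA and in the mean, against 19.0%, 27.4% and 26.2% of all genes. DHODH, the mitochondrial step between CAD and UMPS, stood at 10.5 ± 0.656 CPM with shRNA 1, 6.03 ± 0.835 CPM with shRNA 2 and 20.2 ± 1.57 CPM with control (SD, n = 3 each). Its averaged log2 fold change was -1.35 (edgeR adjusted p = 2.88e-06), against -0.67 and -0.54 for the CTP synthases CTPS2 and CTPS1. Among 5 genes of deoxynucleotide and linked steps, 2 fell and RRM2B rose with shRNA 1, and 4 fell and RRM2B rose with shRNA 2 and in the mean. DUT, which makes the precursor that TYMS uses, fell by 1.52 on average. DTYMK, the kinase after TYMS, fell by 1.35, and DCTD, the dCMP deaminase, fell by 0.36. DCTD did not pass with shRNA 1 (-0.20, edgeR adjusted p = 0.200).

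Of 5 nucleotide kinases, 3 fell in each comparison with control, NME1 (-0.94 on average) and NME2 (-0.43) among them. This is 60.0%, against 19.0% of all genes with shRNA 1, 27.4% with shRNA 2 and 26.2% in the mean. NME1 and NME2 are neighbouring genes of similar sequence, so the division of some reads between them is uncertain. Salvage genes had 2 of 15 lower and 4 higher with shRNA 1, 6 and 4 with shRNA 2, and 6 and 5 in the mean, with an averaged median of 0.10. As shares these were 13.3% and 26.7%, 40.0% and 26.7%, and 40.0% and 33.3%, against the 19.0% and 20.4%, 27.4% and 27.5%, and 26.2% and 26.3% of all genes. With shRNA 1 both salvage shares were near those of all genes, as was the higher share with shRNA 2. TK1, the thymidine kinase of the cytosol, moved furthest: 4.45, 5.84 and 2.99 CPM with shRNA 1, 1.23, 0.974 and 0.920 CPM with shRNA 2, against 16.3, 16.1 and 17.8 CPM with control. Its averaged fall was 2.96 on the log2 scale (edgeR adjusted p = 3.52e-07, SE 0.18). APRT, of adenine salvage, fell by 1.10 on average but did not pass with shRNA 1 (-0.80, edgeR adjusted p = 0.0862).

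UPP1, a uridine phosphorylase, rose on average by 1.67, on 4 to 7 counts with shRNA 1, 23 to 37 with shRNA 2 and 3 to 7 with control. It did not pass with shRNA 1 (0.30, edgeR adjusted p = 0.662). CDA, cytidine deaminase, rested on 97 counts in all, 34, 18 and 11 with shRNA 1, 5, 4 and 10 with shRNA 2, and 7, 4 and 4 with control. It did not pass with shRNA 2 (0.87, edgeR adjusted p = 0.286). Its average was 1.57 (edgeR adjusted p = 0.0301), a call lost without shRNA 2 replicate 3 (1.39, 0.0827), control replicate 2 (1.44, 0.103) or control replicate 3 (1.40, 0.104).

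Genes of breakdown and pool control had 6 of 13 lower and 5 higher in each comparison with control, and an averaged median of 0.30. These are 46.2% and 38.5% of the 13, against 19.0% and 20.4% of all genes with shRNA 1, 27.4% and 27.5% with shRNA 2, and 26.2% and 26.3% in the mean. SAMHD1, which hydrolyses deoxynucleoside triphosphates, stood at 287, 219 and 198 CPM with shRNA 1, 698, 644 and 659 CPM with shRNA 2, against 70.0, 67.4 and 55.8 CPM with control. The order of its groups was opposite to that of RRM1 and RRM2, and SAMHD1 rose by 2.62 on average (edgeR adjusted p = 1.66e-07, SE 0.14). Of all genes tested, 97.8% had a lower averaged log2 fold change. AMPD3, an AMP deaminase, rose by 1.94. DPYS, of pyrimidine breakdown, rose by 3.80 on 10 to 19 counts with shRNA 1, 75 to 135 with shRNA 2 and 7, 2 and 1 with control, and by 4.89 without control replicate 1. NT5M, a mitochondrial deoxynucleotidase, fell by 1.74.

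**Figure D4:**
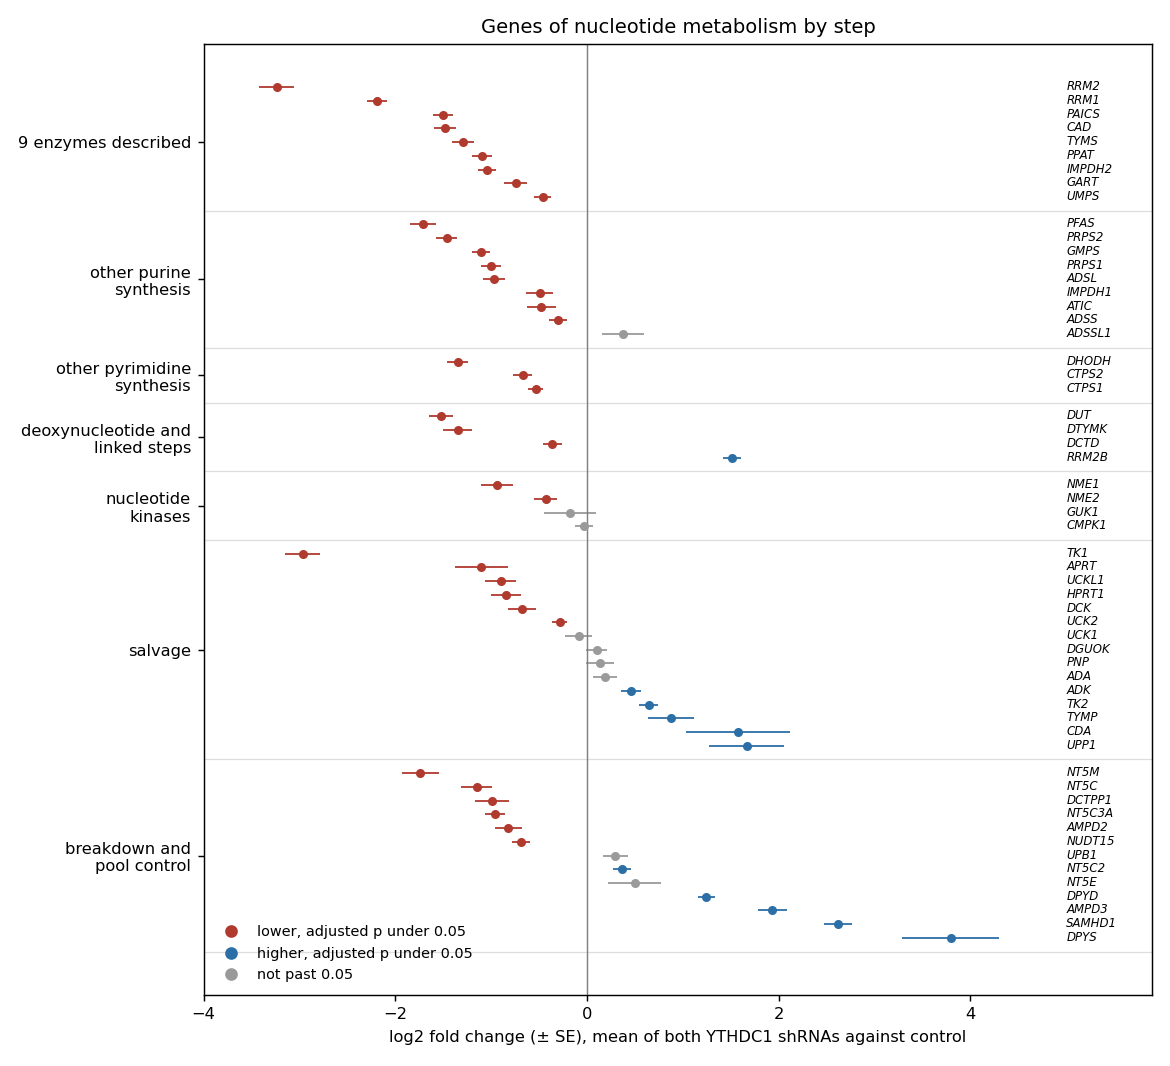
Log2 fold change (± SE, edgeR) of the mean of both YTHDC1 shRNAs against control for the 9 enzymes and other genes of nucleotide metabolism, by step; colours mark calls. The synthesis groups lie to the left of 0 except RRM2B (1.52) and ADSSL1, the older symbol of ADSS1 (0.38), and the groups of salvage and breakdown hold both the TK1 fall (-2.96) and the DPYS rise (3.80).

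Markers of other states moved with these genes. All 12 proliferation markers fell in the mean of both shRNAs (median log2 fold change -2.61), and their summed level was 561 to 698 CPM with shRNA 1, 169 to 194 CPM with shRNA 2 and 1506 to 1866 CPM with control. Of 12 monocyte and macrophage markers 11 rose, with sums of 388 to 573 CPM with shRNA 1, 1289 to 1830 CPM with shRNA 2 and 251 to 276 CPM with control. Among 10 genes of acute myeloid leukemia and myeloid identity, 5 rose and 1 fell, with sums of 3297 to 5495 CPM with shRNA 1, 3844 to 4345 CPM with shRNA 2 and 1406 to 1588 CPM with control. LYZ, lysozyme, made up most of that difference, and without it the sums were 1540 to 1706 CPM with shRNA 1, 1347 to 1384 CPM with shRNA 2 and 1257 to 1315 CPM with control. CD33, FLT3 and PTPRC had at least 46.2 CPM in all 9 libraries, but did not move together. FLT3 stood at 462, 405 and 522 CPM with shRNA 1 and at 259, 297 and 269 CPM with shRNA 2. With control FLT3 had 599, 632 and 626 CPM. PTPRC had at least 516 CPM with either YTHDC1 shRNA and at most 352 CPM with control. MPO stood at 351, 283 and 236 CPM with shRNA 1 and at 50.1, 29.2 and 43.3 CPM with shRNA 2. Its control levels were 130, 66.2 and 99.5 CPM. The list was not evenly expressed: ANPEP had at most 0.123 CPM in any library, and CSF1R stood at 4.51, 4.55 and 5.26 CPM with control. Over all genes, 26.2% fell and 26.3% rose in the mean. With shRNA 2 against shRNA 1, 10 of the 12 proliferation markers were lower and 1, CCNE1, was higher, against 16.5% and 15.5% of all genes. The order of the groups in the proliferation sum is that of 8 of the 9 enzymes, and its part in the result was not tested. In the mean of both without shRNA 2 replicate 1, 12 proliferation markers were lower and 11 monocyte and macrophage markers higher. Of the myeloid identity genes 5 were higher and 2 lower there.

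Markers of other cell types were low, except NCAM1 in the lymphocyte list. The lymphocyte sum was 21.4 to 23.5 CPM with shRNA 1, 29.4 to 33.7 CPM with shRNA 2 and 45.6 to 50.4 CPM with control (4 of 9 tested, 1 lower). Most of it was NCAM1, at 44.2, 46.7 and 48.4 CPM with control, near the 48.6, 50.6 and 48.4 CPM of CD33 there. The T cell gene CD3D stood between 0 and 0.0397 CPM. Erythroid and megakaryocyte markers summed to 0.631 to 0.730 CPM with shRNA 1, 0.974 to 1.26 CPM with shRNA 2 and 0.797 to 1.20 CPM with control, with 1 lower and PF4 at 0 in all. Epithelial and stromal markers summed to 2.98 to 8.35 CPM with shRNA 1, 3.41 to 5.62 CPM with shRNA 2 and 3.28 to 6.95 CPM with control, with 1 lower and 2 higher. Without shRNA 2 replicate 1 the calls in these 3 lists numbered the same. The ribosomal RNA precursor held 4.79% to 13.1% of the counts with shRNA 1, 1.12% to 5.82% with shRNA 2 and 3.05% to 5.60% with control. Without it, 8, 9, 9 and 8 of the enzymes were called lower with shRNA 1, with shRNA 2, in the mean of both and for shRNA 2 against shRNA 1, the same counts as with it.

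Among the 5 genes whose profile over the 9 libraries was most like the mean profile of the 9 enzymes were MTFR2, GINS1, CDCA8 and GMNN, each with Pearson's r = 0.998 on log2 CPM. The libraries fall into 3 groups, so the likeness is mostly one of group means, and 9.99% of other genes tested had r over 0.9. GINS1, a subunit of the replicative helicase complex, averaged 10.5 ± 2.39 CPM with shRNA 1, 3.94 ± 0.511 CPM with shRNA 2 and 31.1 ± 3.86 CPM with control (SD, n = 3 each). GMNN, geminin, an inhibitor of replication licensing, averaged 17.9 ± 2.48 CPM with shRNA 1, 7.73 ± 0.520 CPM with shRNA 2 and 42.6 ± 7.20 CPM with control. Without shRNA 2 replicate 1, GINS1, MTFR2 and GMNN were also among the 5 most like the mean profile, and 10.3% of genes had r over 0.9. Among the enzymes themselves the r to their mean profile, in which each takes part, ran from 0.915 for GART to 0.996 for PAICS and RRM1.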

How the data were processed

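Per the labels' protocols, RNA of MOLM13 cells entered a stranded kit that selects messenger RNA. The authors deposited whole-number read counts per transcript, not normalized, in 1 table. Per the submitters' processing notes, STAR, DESeq and build hg19 were used; their roles and versions, the counting program and its use of strand are not stated in these notes. There were 48104 rows, of which 80 carried a date in place of a symbol; 78 were restored through their identifiers and 2 left out. Rows of a gene share reads, so the row with the highest total stood for each of 25679 symbols. Per-sample columns not used numbered 0. The highest and lowest chi-square per gene between libraries of a group were 289 and 19.8, so none was a repeat of another.

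The test was that of edgeR 4.0.16, run in R 4.3.3 (filterByExpr, TMM scaling, robust quasi-likelihood F-tests, two-sided, Benjamini-Hochberg adjustment over 16746 genes, threshold 0.05), with 1 mean per group over all 9 libraries. DESeq2 1.42.0, other scaling and filters, the replicate block, other rows and the omission of each library were alternatives. The steps were tested on simulated data. A count of 0 allows levels of up to 0.0451 to 0.0948 CPM, depending on the library, which is what 3 counts are worth on the scaled CPM; this covers counting error only.

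The 9 enzymes are always named. Of a wider list of 52 genes, the tested genes of the synthesis and deoxynucleotide groups are named, and of the kinase, salvage and breakdown groups the 4 with the largest averaged log2 fold change among those called, except that some genes are not reported here by name or in figures. Marker lists were proliferation, monocyte and macrophage, myeloid identity, lymphocyte, erythroid and megakaryocyte, and epithelial and stromal genes. The members and lists were chosen with earlier results of these data known.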

Additional observations from a re-analysis of the deposited data

How the results depend on the processing

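The counts of enzymes called lower were 8 with shRNA 1, 9 with shRNA 2, 9 in the mean of both and 8 for shRNA 2 against shRNA 1, and stayed within 1.5-fold under every alternative run, as did the counts of other nucleotide genes with 1 exception. Of single enzyme fold changes under the alternatives, 601 kept direction and call, 0 reversed, and UMPS and CAD changed call as given above. Other nucleotide genes lower with shRNA 2 than with shRNA 1 numbered 10 to 24 on leaving out 1 library, 24 without shRNA 1 replicate 3. The ratio of RRM2 to RRM1 differed by -1.17 to -0.91 on leaving out 1 library and missed 0.05 (exact permutation p = 0.0714) without shRNA 2 replicate 2 or any 1 control. That of IMPDH1 to IMPDH2 differed by 0.41 to 0.67, with exact permutation p from 0.0536 to 0.179 without any of 8 libraries. The smaller number of arrangements without a library raises the smallest p possible. Replicate numbers did not pair the libraries across all groups: correlations of same-numbered deviations ran from -0.0876 to 0.568, with 2 of 9 over 0.1. Those 2 were between shRNA 1 and control, 0.568 for replicate 1 and 0.214 for replicate 3, so a pairing of these groups is not settled. Of the 9 libraries, 3 correlated best with their own number. With the replicate block, 8, 9, 9 and 8 enzymes were lower in these comparisons. Restricting the fit to the groups compared gives no value for the mean of both. The lowest counts of an enzyme were the 109 to 277 of RRM2 with shRNA 2.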
